A study of Homo sapiens with 4 samples.

Results

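The genes examined were 10 human genes that write, maintain or remove DNA methylation: the methyltransferases DNMT1, DNMT3A and DNMT3B, the UHRF1 and UHRF2 proteins, the dioxygenases TET1, TET2 and TET3, and the DNA glycosylases TDG and MBD4. They were taken by name, as every array probe that carried one of these 10 symbols, which gave 22 of 50599 probes. Expression was measured in GIST-T1, an established cell line from a human gastrointestinal stromal tumor (GIST), a mesenchymal tumor of the gut wall. The treated group had been transfected with 100 pmol of a mirVana miR-335 mimic, a synthetic double-stranded RNA that delivers the mature microRNA to the cell, and the control group with mirVana miRNA mimic Negative Control #1. All cells were GIST-T1 in serum-containing medium, both groups were nucleofected, and RNA was taken at 48 h. There were 2 arrays per group, and the labels do not say whether they came from separate cultures, so p-values measure only the spread between these samples, which may be technical.

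In mammals most DNA methylation lies on cytosines that precede a guanine (CpG sites), and dense methylation of a promoter goes with silencing of its gene. DNMT3A and DNMT3B place new methyl groups, while UHRF1 recognizes DNA that is methylated on a single strand after replication and recruits DNMT1, which copies the mark. TET enzymes oxidize methylcytosine, TDG and MBD4 excise modified or deaminated bases, and base excision repair then restores cytosine, so the steady pattern depends on all of these activities. The study asked which microRNA genes are silenced by promoter methylation in GIST and what those microRNAs do. The question here was whether the genes for the methylation machinery themselves responded to the mimic.

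The sequences that a microRNA works through are given first, because a target is usually recognized through a match to the seed. The seed (bases 2 to 8) is in capitals, and the sequences are the RefSeq mature forms.
hsa-miR-335-5p: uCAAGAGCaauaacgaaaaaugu
hsa-miR-335-3p: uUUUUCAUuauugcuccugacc
hsa-miR-34a-5p: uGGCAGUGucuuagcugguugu
The first pair comes from the same hairpin, on the plus strand of chromosome 7, at chr7:130496126-130496148 and chr7:130496162-130496183 in GRCh38.p14. The labels do not say which arm the mimic carried. The third sequence (chr1:9151735-9151756, minus strand) is shown because the labels conflict: the title, the treatment field and the protocol of both treated samples give miR-335, whereas a second line of their descriptions reads miR-34a mimic. The group is called the miR-335 mimic here, as most fields have it, and the expression values were not used to settle the point. The 3 seeds differ from one another. The 7-base match to the miR-335-5p seed, GCTCTTG, was in 221 of 50599 probe sequences (0.437%) and in 0 of the 22 probes of the methylation genes. The match to miR-34a-5p, CACTGCC, was in 0.435% of probes and also in 0 of the 22. The match to miR-335-3p, ATGAAAA, was in 1.22% of probes and in 1 of the 22, the MBD4 probe, where it begins at base 24 of the probe in the stretch ggaaaatcATGAAAAattaagtc. Probes of 60 bases cover a small piece of each transcript, so a missing match says only that these letters were not in the probe.

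Signal well above background was seen for 40.3% to 41.9% of probes, depending on the array, and 0 spots were saturated. Values are log2 processed intensity minus the 75th percentile of the array, so 0 is the level of that percentile, and because probes differ in brightness, levels were compared between arrays and never between probes. The genes listed as markers of GIST cells were present: all 8 of 8 (KIT, ANO1, ETV1, PRKCQ, PDGFRA, CD34, GPR20 and BARX1) were well above background on all 4 arrays. Their summed level, on the log2 scale, was 8.94 to 8.97 on the mimic arrays and 9.10 to 9.12 on the control arrays. A summed level adds the signal of every probe of a list, detected or not, so bright probes weigh most. The bright probe of KIT read 7.14 and 7.17 (mimic) and 7.49 and 7.48 (control), a log2 change of -0.33. On the brightest probe of each gene the median change of the 8 was -0.08, with 7 below 0 and 1 above. Of the markers of other cells, 2 of 5 leukocyte genes (CD14 and ITGAM, but not PTPRC or CD3E), 3 of 5 epithelial genes (KRT8, KRT18 and EPCAM) and 0 of 4 endothelial genes were well above background on all 4 arrays, with summed levels for leukocyte markers of -0.27 to -0.24 (mimic) and -0.11 to 0.11 (control) and for epithelial markers that spanned 6.98 to 7.005 (mimic) and 6.96 to 6.99 (control). The part of these shifts in the results below was not tested. In bulk RNA, fewer expressing cells and less RNA per cell cannot be told apart.

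None of the writers or erasers passed the test. A probe entered the test when either group had it well above background on each of its arrays, which held for 19 of the 22 probes and for 9 of the 10 genes, all but TET3. In limma, with Benjamini-Hochberg adjustment over all 20328 tested probes, 0 of the 19 were called, with adjusted p-values from 0.0814 to 0.915, while 532 of all probes (2.62%) were called, 1.15% lower and 1.47% higher on the mimic arrays. At an unadjusted limma p below 0.05, 5 of the 19 (26.3%) passed, against 25.3% of all probes; they were the DNMT1 probe, both UHRF1 probes, DNMT3B probe 2 and TET2 probe 1. A difference of over 1.5-fold was seen in 0 of the 19, against 3.9% of all probes, and the groups did not overlap in 10 of the 19 (52.6%), against 59.7%. With the mimic higher this held for 5 of the 19, against 27.1% of all probes, and with the mimic lower for 5, against 32.5%. These shares were close to those of the array as a whole. The log2 change was above 0 for 6 of the 19 (31.6%), against 46.2% of all probes, but 7 of the 19 probes belong to TET1 and TET2. On the brightest tested probe of each gene the change was above 0 for 4 of 9 genes, against 44.7% of all genes.

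The intervals of the changes were narrow for most of these probes. Such intervals cover only the spread between these arrays, which may be technical. They also hold for a single reference, and the spike-in reference given below shifted every change by about 0.18. The 95% interval of the log2 change had a median half-width of 0.18 (range 0.11 to 0.78), 15 of the 19 intervals lay within 1.5-fold in either direction (0.58 on the log2 scale), and all 19 lay within 1 log2 unit. The median absolute change was 0.12, against 0.10 over all tested probes. The median difference between the mimic replicates was 0.11 for these probes and 0.06 over all probes, while between the control replicates it was 0.06 for both.

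**Figure D1:**
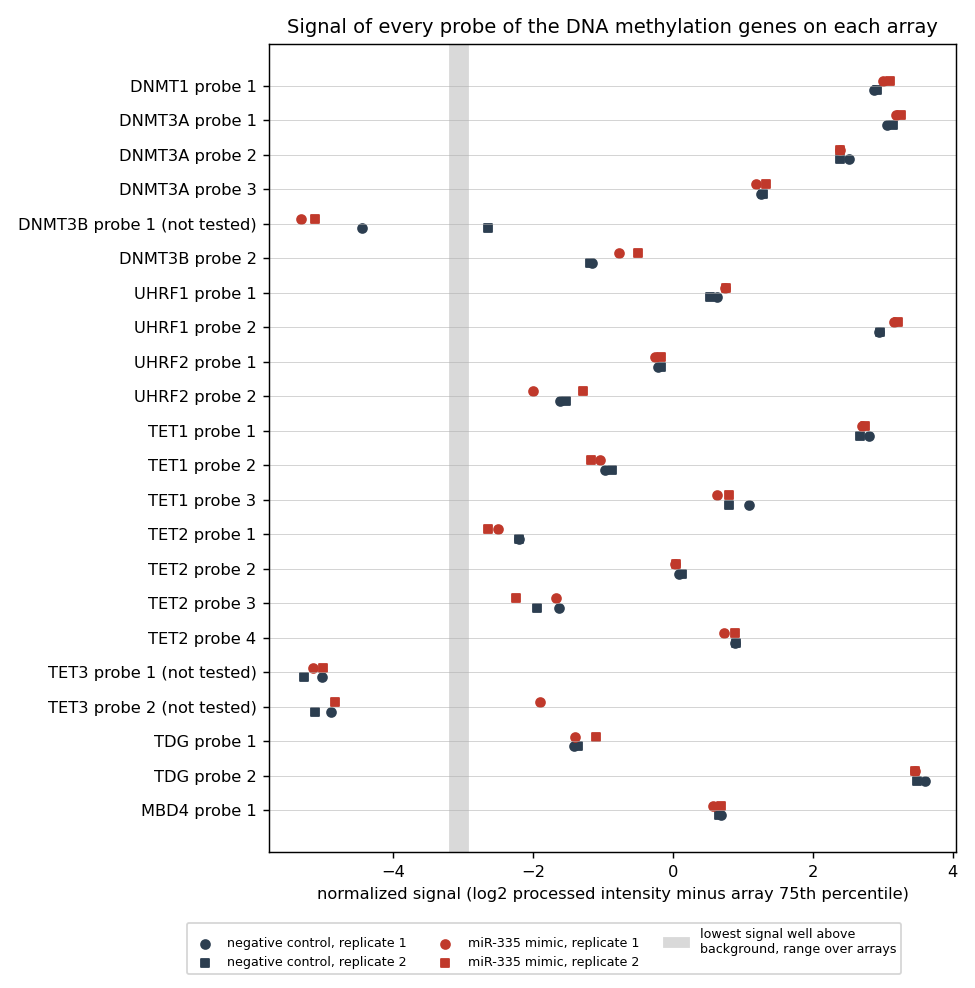
Normalized signal (x axis, log2 processed intensity minus the 75th percentile of the array) of all 22 probes of the 10 genes (y axis) on each of the 4 arrays. Red symbols are the mimic arrays, dark symbols the control arrays, circles replicate 1 and squares replicate 2. The gray band is the lowest signal that was well above background, -3.19 to -2.93 over the arrays. The groups lie close together for most probes, the widest tested gap is at DNMT3B probe 2, and the probes that were not tested lie largely below the band. Brightness differs between probes for technical reasons, so positions are to be compared within a line only.

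The probes of the maintenance pair, UHRF1 and DNMT1, all read higher on the mimic arrays, but none passed the test. UHRF1, the reader of hemimethylated DNA, had 2 probes (hg19 chr19:4960895-4960954 and chr19:4962065-4962124, plus strand). The second read 3.17 and 3.22 on the mimic arrays and 2.95 and 2.96 on the control arrays. The groups did not overlap, and the change of 0.24 ± 0.04 (SE, n = 2 per group; 1.18-fold, 95% interval 0.13 to 0.36) had the lowest adjusted p of all 19 probes, 0.0814 in limma. The first probe read 0.74 and 0.76 (mimic) and 0.63 and 0.54 (control), a change of 0.17 with adjusted p = 0.171 in limma. Both probes gave the same sign, and their changes differed by 0.08. The exact permutation test of that difference could say nothing either way, since its two-sided p was already 0.333, the smallest that 2 against 2 arrays allow.

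DNMT1, the maintenance methyltransferase, had a single probe (chr19:10244023-10244082, minus strand). It read 3.01 and 3.11 on the mimic arrays and 2.88 and 2.91 on the control arrays. The groups did not overlap, but the change was only 0.16 ± 0.05 (SE, n = 2 per group; 1.12-fold), with adjusted p = 0.182 in limma. Its interval, 0.01 to 0.31, lay within 1.5-fold. With the spike-in probes as the reference the sign turned for DNMT1 and UHRF1 probe 1 (both -0.02), while UHRF1 probe 2 stayed above 0, at 0.06. With an intensity trend in eBayes the DNMT1 probe (adjusted p = 0.039 in limma) and UHRF1 probe 2 (0.00408) passed the test.

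The start regions of DNMT1 and UHRF1 are shown because the values of this pair are set beside those of replication genes below, many of which are known targets of E2F factors. The windows are the 250 bases before a RefSeq start in GRCh38.p14, written 5′ to 3′ on the gene's strand. Capitals mark a match to TTTCCCGC, TTTGGCGC, TTTCGCGC or TTTGCCGC, the E2F-type motifs searched on both strands (a match on the other strand appears as its reverse complement).
UHRF1 chr19:4909251-4909500, plus strand: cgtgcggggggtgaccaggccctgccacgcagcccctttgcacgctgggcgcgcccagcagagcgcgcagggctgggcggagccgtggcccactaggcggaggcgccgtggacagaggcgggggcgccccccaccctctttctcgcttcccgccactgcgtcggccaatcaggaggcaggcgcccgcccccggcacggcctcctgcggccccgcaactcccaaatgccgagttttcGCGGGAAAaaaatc
UHRF1 chr19:4909894-4910143, plus strand: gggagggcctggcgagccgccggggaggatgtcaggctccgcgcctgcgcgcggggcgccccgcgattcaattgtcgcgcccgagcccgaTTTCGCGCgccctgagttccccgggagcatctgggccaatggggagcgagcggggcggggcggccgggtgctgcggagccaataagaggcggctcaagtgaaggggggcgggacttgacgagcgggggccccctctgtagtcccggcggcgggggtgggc
DNMT1 chr19:10194954-10195203, minus strand: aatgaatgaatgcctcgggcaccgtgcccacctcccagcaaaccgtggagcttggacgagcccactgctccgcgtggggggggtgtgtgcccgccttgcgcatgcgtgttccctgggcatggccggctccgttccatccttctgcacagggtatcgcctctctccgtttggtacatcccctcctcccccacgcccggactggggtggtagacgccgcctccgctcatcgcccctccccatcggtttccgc
The first UHRF1 window holds 28 CpG sites, the second 32 and that of DNMT1 21, against a median of 11 over 35116 such windows. A motif was in 2.79% of all windows and in 2 of the 21 windows of the 10 genes, the UHRF1 windows printed. The third UHRF1 window, which overlaps the second and holds 41 CpG sites, and the DNMT1 window have none of these letters. A match is a description of the sequence and not evidence of binding.

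Among the de novo enzymes, DNMT3B had the widest change of any tested probe of the 10 genes. Its probe 2, listed for 4 RefSeq transcripts (chr20:31397064-31397123, plus strand), read -0.76 and -0.50 on the mimic arrays and -1.15 and -1.18 on the control arrays. The groups did not overlap, and the change was 0.53 ± 0.10 (SE, n = 2 per group; 1.45-fold, 95% interval 0.23 to 0.83), with adjusted p = 0.0986 in limma. The mimic replicates differed by 0.26 and the control replicates by 0.03. The change was 0.35 with spike-in scaling (adjusted p = 0.0542 in limma) and 0.28 with normexp background correction, where it passed the test (adjusted p = 0.0408), as it did with an intensity trend in eBayes (0.026). DNMT3B probe 1 (chr20:31384813-31384872), listed for a single Ensembl transcript, was well above background on 1 array only, control replicate 2. It read -5.32 and -5.12 (mimic) and -4.44 and -2.65 (control), and no fold is given for it.

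The probes of DNMT3A, the other de novo enzyme, gave changes of both signs, and none passed the test. Its probe 1 (chr2:25456415-25456474, minus strand) read 3.19 and 3.26 on the mimic arrays and 3.06 and 3.15 on the control arrays, a change of 0.12 with adjusted p = 0.284 in limma (-0.06 with spike-in scaling). Probe 2 (chr2:25457095-25457154), listed for the same 3 transcripts, read 2.39 and 2.40 against 2.52 and 2.39, a change of -0.07. These neighboring probes disagreed in sign, by 0.19. The exact permutation test of that gap could say nothing either way, since its two-sided p, 0.333, was the smallest that the design allows. Probe 3 (chr2:25504394-25504453), listed for 1 other transcript record, read 1.19 and 1.33 against 1.26 and 1.29, a change of -0.01 (95% interval -0.20 to 0.17). For DNMT3A the interval of each of the 3 probes lay within 1.5-fold in either direction.

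No probe of UHRF2, a relative of UHRF1 that can bind hydroxymethylcytosine, passed the test, and 1 of its 2 probes had a narrow interval. Probe 1 (chr9:6421082-6421141) read -0.25 and -0.16 on the mimic arrays and -0.21 and -0.17 on the control arrays, a change of -0.01 ± 0.05 (SE, n = 2 per group) with a 95% interval of -0.16 to 0.13. Probe 2 (chr9:6506080-6506139) read -2.00 and -1.29 against -1.62 and -1.53. The mimic replicates of this dim probe lay on both sides of the controls, and its interval of -0.85 to 0.71 was the widest of the 19, so a change of 1.5-fold either way was not detectable with it.

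With 75th percentile scaling all 7 tested TET probes were below 0, as were 53.8% of all probes, with a median of -0.18 and a range of -0.37 to -0.02. The sign was not stable for TET1 probe 1, which was at 0.0031 with quantile normalization and 0.0052 with scaling to detected probes and also above 0 without mimic replicate 1 (0.0052) or control replicate 1 (0.050), nor for TET2 probe 3, which was at 0.11 without mimic replicate 2. None of the 7 passed the test, and in 4 of the 7 the groups did not overlap, all with the mimic lower, against 32.5% of all probes. The 7 probes represent 2 genes measured on the same 4 arrays, so they are not 7 independent readings.

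TET2, a tumor suppressor often mutated in blood cancers, had 4 probes on chromosome 4 (plus strand). Probe 1 (chr4:106163842-106163901) is the only one listed for the transcript record NM_017628, the other 3 being listed for NM_001127208. It read -2.50 and -2.64 on the mimic arrays and -2.21 and -2.20 on the control arrays. The groups did not overlap, and the change was -0.37 ± 0.06 (SE, n = 2 per group; 1.29-fold lower, 95% interval -0.55 to -0.19), with adjusted p = 0.085 in limma. The signal was dim, at 29.3 to 39.5 intensity units, close to the lowest level that was well above background, and with normexp background correction the change was only -0.14 (adjusted p = 0.207 in limma).

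The other 3 TET2 probes gave smaller changes. Probe 4 (chr4:106200570-106200629), the brightest, read 0.73 and 0.89 on the mimic arrays and 0.88 and 0.90 on the control arrays. Probe 2 (chr4:106193920-106193979) read 0.03 and 0.04 against 0.09 and 0.13, and probe 3 (chr4:106199618-106199677) read -1.67 and -2.24 against -1.62 and -1.94. Their changes were -0.08, -0.08 and -0.18, with adjusted p-values of 0.507, 0.318 and 0.683 in limma. The change of probe 1 minus that of the brightest probe was -0.29. The exact permutation test of that difference gave a two-sided p of 0.333, the smallest possible, so it could say nothing either way.

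TET1, the founding member of the family, had 3 probes on chromosome 10 (plus strand), all listed for NM_030625. Probe 1 (chr10:70332072-70332131) read 2.70 and 2.74 on the mimic arrays and 2.80 and 2.67 on the control arrays, a change of -0.02 with a 95% interval of -0.20 to 0.16. Probe 2 (chr10:70453516-70453575) read -1.05 and -1.17 against -0.97 and -0.87, a change of -0.19 with adjusted p = 0.214 in limma. Probe 3 (chr10:70454164-70454223) read 0.63 and 0.81 against 1.09 and 0.81, a change of -0.23 with adjusted p = 0.351 in limma. In probe 3 the second arrays of the groups read nearly alike, and the difference came from the first of each. The brightest probe thus gave the smallest change.

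TET3 could not be assessed. Its probe 1 (chr2:74328560-74328619) was not well above background on any array, at -5.15 and -5.01 (mimic) and -5.01 and -5.28 (control). Probe 2 (chr2:74329639-74329698) read -1.90 on mimic replicate 1 alone and -4.82, -4.88 and -5.12 on the other arrays. A single array well above background gives no change between groups, and the mimic mean lay under the floor set by the lowest signals above background, so no fold is given.

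None of the 3 glycosylase probes passed the test. TDG, which removes thymine and oxidized cytosines opposite guanine, read 3.46 and 3.47 on the mimic arrays and 3.60 and 3.50 on the control arrays with its bright probe 2 (chr12:104382442-104382501, plus strand). The groups did not overlap, yet the change was -0.09 (95% interval -0.24 to 0.07; adjusted p = 0.38 in limma). Probe 1 (chr12:104381013-104381072) read -1.40 and -1.10 against -1.42 and -1.36, a change of 0.14 in the other direction, which was -0.04 with spike-in scaling and -0.0085 without mimic replicate 2. Both TDG probes are also listed for a further transcript record, XR_133016, so signal from another transcript may enter. MBD4, which excises thymine from deaminated CpG sites, read 0.57 and 0.69 on the mimic arrays and 0.68 and 0.66 on the control arrays with its 1 probe (chr3:129150330-129150389, minus strand), a change of -0.04 ± 0.06 (SE, n = 2 per group). Its interval, -0.20 to 0.12, lay within 1.5-fold in either direction, and this is the probe that holds the match to the miR-335-3p seed.

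**Figure D2:**
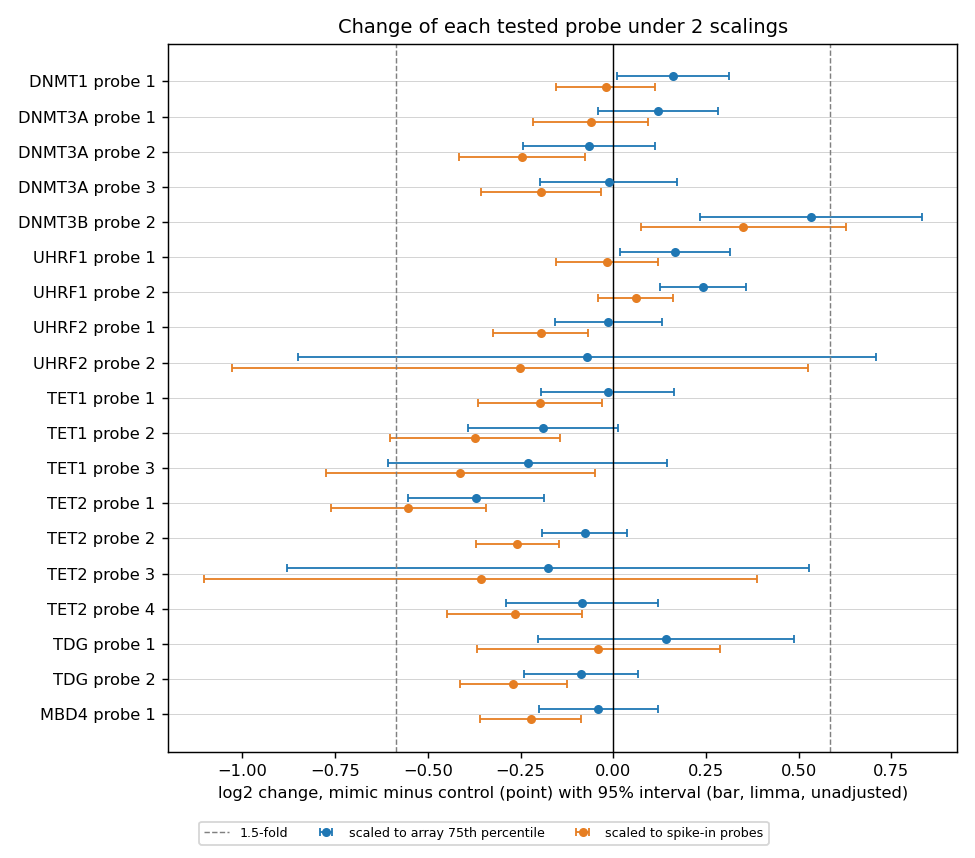
Log2 change, mimic minus control (x axis), of the 19 tested probes (y axis), as points with 95% intervals from limma that are not adjusted for multiple tests. Blue is scaling to the 75th percentile of each array, orange scaling to 7 spike-in probes, and dashed lines mark 1.5-fold. The orange points lie about 0.18 to the left of the blue ones throughout, the 7 TET points lie below 0 in both colors, and DNMT3B probe 2 lies above 0 in both.

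The direction of small changes depended on the reference. The 7 spike-in probes, RNAs added at labeling, read a median of 0.18 higher on the mimic arrays after percentile scaling. With them as the reference the median change of all tested probes moved from -0.01 to -0.20 and that of the 19 probes from -0.04 to -0.22. On this scale 8 of the 19 (42.1%) were called lower in limma, and so were 8668 of all 20328 probes (42.6%), so the share among the 19 was that of the whole array. The 8 were TET2 probes 1, 2 and 4 (-0.55, -0.26 and -0.27), TET1 probe 2 (-0.37), TDG probe 2 (-0.27), DNMT3A probe 2 (-0.25), MBD4 (-0.22) and UHRF2 probe 1 (-0.20), with adjusted p-values from 0.0226 to 0.0423. The cause of the spike-in shift was not tested.

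**Figure D3:**
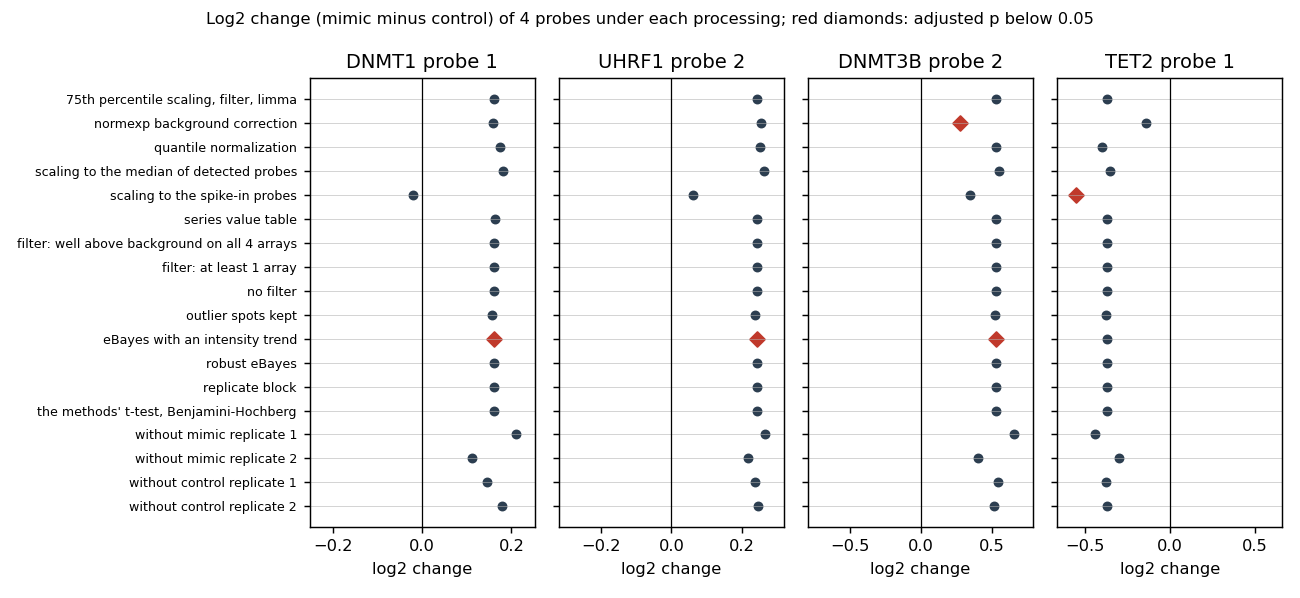
Log2 change, mimic minus control (x axis, own range in each panel), of the DNMT1 probe, UHRF1 probe 2, DNMT3B probe 2 and TET2 probe 1 under each way of processing the arrays (y axis). Red diamonds have an adjusted p below 0.05 and dark circles do not. DNMT3B and UHRF1 stay above 0 and TET2 below 0 in every line, DNMT1 turns to -0.02 with spike-in scaling, and calls appear only with normexp correction, spike-in scaling or an intensity trend in eBayes.

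The rest of the pathway was examined on the brightest tested probe of each gene. The lists were written from general knowledge but with earlier results of these data known, and counts cover the list genes that are reported here. A sign is given here relative to the 75th percentile of the array. On such probes 2.76% of all 15454 genes were called in limma, 25.9% had an unadjusted p below 0.05, and the median change was -0.02. Spike-in scaling shifted all genes alike, to a median of -0.20 with 88.2% below 0, so signs on that scale are to be read against those values. Of the 8 tested partners of maintenance methylation, 0 were called and 2, LIG1 and CDCA7, had an unadjusted p below 0.05. LIG1 and PCNA also act in DNA replication, as do genes of the S phase list below. The median change of the 8 was 0.08, with 7 above 0 and 1 below, and with spike-in scaling it was -0.10. This median lay above that of all genes, and the spike-in scale could not alter that, since it shifts every gene alike. The remodeler HELLS was at 0.02, the replication clamp PCNA at 0.07 and the deubiquitinase USP7, which protects DNMT1 and UHRF1, at -0.21 on a dim probe. Among 16 silencing partners 0 were called, 2 had an unadjusted p below 0.05 and the median was 0.03 (-0.15 with spike-in scaling), with the histone methyltransferases EZH2 at 0.19 and SETDB1 at 0.12 and the deacetylase HDAC1 at 0.0018. The list of methyl-CpG readers also holds MBD3, MBD5 and MBD6, family members that are not selective for methylated CpG. Among its 8 tested genes 0 were called and 1 had an unadjusted p below 0.05. The median was -0.0010 (-0.18 with spike-in scaling), with MBD2 at 0.06 and ZBTB33 at -0.02. Of the genes whose changes are printed for these lists, EZH2 alone was above 0 with spike-in scaling, at 0.0061.

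In base excision repair and methyl donor supply no gene passed the test either. Of 13 tested repair genes 0 were called in limma and 2 had an unadjusted p below 0.05 (median change 0.03, and -0.15 with spike-in scaling), with the endonuclease APEX1 at 0.06, the scaffold XRCC1 at 0.06 and the demethylation factor GADD45A at 0.08, all 3 of them below 0 with spike-in scaling. Of 12 methyl donor genes 0 were called in limma and 2 had an unadjusted p below 0.05 (median change -0.02, and -0.20 with spike-in scaling), with the synthetase MAT2A at -0.02 and AHCY, which clears S-adenosylhomocysteine, at 0.11 (-0.07 with spike-in scaling). In the same list MAT2B, the regulatory subunit of MAT2A, named here after its value was seen, read 2.39 and 2.21 on the mimic arrays and 2.94 and 2.98 on the control arrays, a change of -0.66 with adjusted p = 0.0538 in limma. A dimmer MAT2B probe read -0.54 and -0.47 (mimic) and -0.08 and 0.03 (control), a change of -0.48 with adjusted p = 0.058 in limma. The germline genes that promoter methylation commonly silences were mostly not detected: 20 of 24 had a probe, and TDRD1 was the only one well above background on all 4 arrays, at -1.91 and -2.14 (mimic) and -1.91 and -1.58 (control), a change of -0.28 with adjusted p = 0.342 in limma.

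The TET cofactor list covers the metabolites that TET enzymes need or are inhibited by. Besides metabolic genes it holds OGT, VHL, KDM4A and KDM6A, which are not genes of that metabolism. Of its 14 tested genes reported here, 0 were called in limma. At an unadjusted limma p below 0.05 there were 3, D2HGDH, OGT and VHL, all with the mimic higher. The median change of the 14 was -0.03 (-0.21 with spike-in scaling), with 5 above 0 and 9 below. The succinate dehydrogenase subunit SDHB was at -0.04, fumarase (FH) at -0.08 and IDH1 at -0.01.

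The replication and S phase list, written as a check on cycling, had the highest median of these lists. Of its 17 tested genes 15 had a change above 0, against 44.7% of all genes, the median was 0.12, and in 13 the groups did not overlap with the mimic higher, against 26.8% of all genes. With spike-in scaling the median was -0.07, and 4 of the 17 were above 0, against 11.8% of all genes. In limma 0 of the 17 were called and 7 had an unadjusted p below 0.05, all 7 higher. These values stand beside those of UHRF1 (0.24 and 0.17) and DNMT1 (0.16), whose genes are themselves transcribed in S phase. The part of cycling in the UHRF1 and DNMT1 values was not tested.

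**Figure D4:**
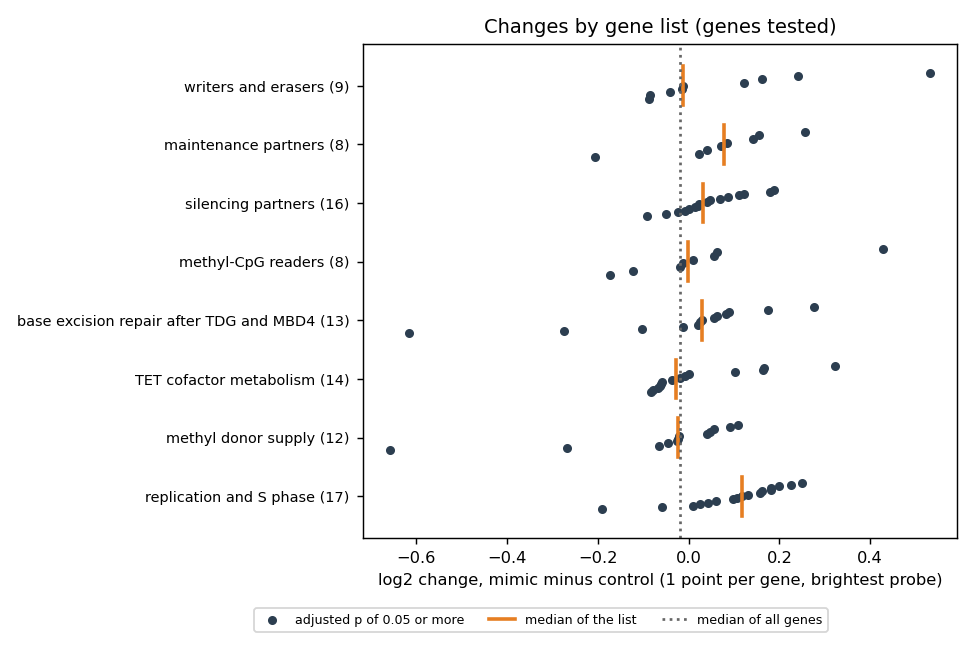
Log2 change, mimic minus control (x axis), of each tested gene on its brightest probe, in 8 lists (y axis, genes reported here, number of genes tested in brackets). Orange bars are list medians and the dotted line is the median of all genes, -0.02. None of the points has an adjusted p below 0.05, and the medians run from -0.03 (TET cofactor metabolism) to 0.12 (replication and S phase).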

How the data were processed

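Total RNA (100 ng) from GIST-T1 cells was labeled with 1 dye and hybridized to human Agilent arrays of 60-base probes. The authors deposited spot intensity values from Agilent Feature Extraction (version 10.7 per the labels, 10.7.3.1 per the file headers), background-subtracted and detrended, and not normalized between arrays. The deposited series table holds the same intensity, rounded, with 0 columns matched to no sample. Outlier spots (356 to 395 per array) and control spots were left out, replicate spots were averaged, and the log2 intensity was set relative to the 75th percentile of the array (178.8 to 189.7 units). The number of arrays limits the precision. The mimic and control arrays were then compared by lmFit and eBayes of limma (version 3.58.1, R 4.3.3), with a threshold of 0.05 after Benjamini-Hochberg adjustment. The same step was also run on data simulated from these fits, and no statement here rests on that run.

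Alternatives were background correction (normexp), scaling, the series table, filters, outlier spots, eBayes options, the methods' t-test, a replicate block and leaving out each array. The 10 genes and all lists were chosen with earlier results of these data known, so no list supports another. A few list genes are not reported here and were left out of every list count. The text names all 10 genes and 16 list genes set by role, whatever their values. MAT2B, some members of the maintenance, reader and TET cofactor lists, the germline gene TDRD1 and cell markers are named besides. Some of these were named after their values were seen. Gene names and hg19 positions are those of the array files, and whether a probe lies in an exon or an untranslated region was not analysed here. Sequences are from RefSeq (GRCh38.p14), where all 10 symbols matched. Protein sequences were not used here. Figures were drawn with matplotlib 3.10.9.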

Additional observations from a re-analysis of the deposited data

How the results depend on the processing

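The absence of a call among the 19 tested probes (5 at an unadjusted p below 0.05) held in limma with each filter, quantile normalization, the series table, scaling to detected probes, outlier spots kept, robust eBayes and each left-out array, and not with 3 other settings. This says little for the wider filter, no filter and 3 of the 4 left-out arrays, where no probe of the whole array was called, and with an array left out the lone sample of its group is assumed to vary like the other group. Normexp correction called 1 (DNMT3B probe 2 at 0.28, adjusted p = 0.0408), spike-in scaling 8, and eBayes with an intensity trend 3 (DNMT1, adjusted p = 0.039; DNMT3B probe 2, 0.026; UHRF1 probe 2, 0.00408). The methods' t-test gave 2 of the 19 below 0.05 unadjusted and 0 after Benjamini-Hochberg. The cause was not tested. Over all probes, the count called was 532 (233 lower, 299 higher). It was 1550 (758 and 792) with normexp, 9174 (8668 and 506) with spike-in scaling and 3083 (1736 and 1347) with the trend. It was 0 in limma when probes well above background on at least 1 array were kept (4696 unadjusted) and 0 without a filter (3627 unadjusted), where more probes were tested, and 0 with the methods' t-test after adjustment (4115 unadjusted). Leaving out single arrays gave 0 to 8, all 8 higher and in the set without mimic replicate 2 (3582 to 3907 unadjusted).

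Under the replicate numbers used here, the replicate differences of the groups had a correlation of 0.03 across probes. The sample titles number the arrays in a single run over both groups, so this matching was assigned here. The other matching was not examined, so whether the samples are paired cannot be judged. With the replicate number as a block limma called 0 probes (4400 unadjusted), 0 of the 19 (3 unadjusted) and 0 list genes. A slide or scan block was not run, since all 4 arrays share 1 slide and 1 scan time. Of the list genes reported here, 0 were called in limma (19 at an unadjusted p below 0.05 by the methods' t-test). It was 5 with normexp, 1 with scaling to detected probes, 37 with spike-in scaling, 2 when all 4 arrays had to be well above background, 19 with the trend, and 0 with the wider filter, no filter, the adjusted t-test or any array left out. The median change of the 19 probes, -0.04, was -0.22 with spike-in scaling and -0.07 to 0.02 without single arrays.

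Signs turned as follows. With normexp, DNMT3A probe 3 was at 0.00058, UHRF2 probe 2 at 0.054, HDAC1 at -0.0057, ZBTB33 at 0.0048 and IDH1 at 0.0019. With quantile normalization, UHRF2 probe 1 was at 0.0043, TET1 probe 1 at 0.0031, HDAC1 at -0.0040 and IDH1 at 0.013. With scaling to detected probes, DNMT3A probe 3 was at 0.0081, UHRF2 probe 1 at 0.0071, TET1 probe 1 at 0.0052, ZBTB33 at 0.0019 and IDH1 at 0.012. With outlier spots kept HDAC1 was at -0.0042. With spike-in scaling, DNMT1 was at -0.020, DNMT3A probe 1 at -0.061, UHRF1 probe 1 at -0.016, TDG probe 1 at -0.040, HELLS at -0.16, PCNA at -0.11, SETDB1 at -0.060, HDAC1 at -0.18, MBD2 at -0.13, APEX1 at -0.13, XRCC1 at -0.12, GADD45A at -0.10 and AHCY at -0.073. Leaving out single arrays gave ranges that crossed 0 for DNMT3A probe 2 (-0.13 to 0.0017) and probe 3 (-0.083 to 0.057), UHRF2 probe 1 (-0.056 to 0.029) and probe 2 (-0.43 to 0.29), TET1 probe 1 (-0.081 to 0.050), TET2 probe 3 (-0.46 to 0.11), TDG probe 1 (-0.0085 to 0.29), MBD4 (-0.096 to 0.016), HELLS (-0.018 to 0.064), HDAC1 (-0.0088 to 0.012), ZBTB33 (-0.056 to 0.018) and IDH1 (-0.037 to 0.019). Under these settings 290 values of the 19 probes kept their direction and side of the threshold, 21 changed sign and 12 came past the threshold.

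With 2 arrays per group, a single value cannot reach an exact two-sided p below 0.333, so calls rest on limma's pooled spread. Depth of signal limits TET3, DNMT3B probe 1, TET2 probe 1 and USP7, which lie near or below the lowest level well above background.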
